A study of Mus musculus with 9 samples.

Results

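Matrix metalloproteinases and the tissue inhibitors that block them were followed by 10 genes in 4T1 cells, a mouse mammary carcinoma line. The members were taken by name, with no threshold on their values, but earlier results of these data were known when they were chosen. They were Mmp2, Mmp3, Mmp9, Mmp10, Mmp13, Mmp14, Mmp15, Timp1, Timp2 and Timp3, which is 10 of the 24421 genes in the count table. RNA was sequenced from 9 libraries in 3 groups of 3: spheroids grown in 3D without added palmitate, spheroids grown in 3D with 75 µM palmitate added, and monolayers grown in 2D with 75 µM palmitate added, each kept for 5 days. All groups were the same unmodified line in medium with fetal bovine serum, which itself carries fatty acids, and spheroids formed over a layer of soft agar. The palmitate was bound to albumin, and cultures without it received the vehicle. No monolayer without added palmitate was analysed here, and an effect of palmitate on monolayers was therefore not tested. The labels do not say whether replicates were separate cultures, and the p-values therefore measure the spread between these libraries.

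Matrix metalloproteinases (MMPs) are zinc-dependent enzymes that cut collagens, proteoglycans and other proteins of the extracellular matrix, as well as growth factors and receptors. Most are secreted as inactive proenzymes, in which a cysteine of the propeptide covers the zinc until other proteases remove it, and a few stay anchored in the cell membrane. Tissue inhibitors of metalloproteinases (TIMPs) close the active site of the mature enzymes. In mammary tumours these proteins are known from invasion and from the remodelling of the surrounding stroma, where many of them are made by stromal cells and others by the tumour cells.

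Total counts ran from 6595514 to 31177756 per library, and the smallest library was replicate 3 of the spheroids with added palmitate. The ribosomal RNA precursor Rn45s took 1.77% to 5.38% of the counts. All 8 epithelial markers had counts, with a summed level of 4016 to 5314 CPM (counts scaled to the library's total). The summed fibroblast markers were at 93.4 to 111 CPM in spheroids with added palmitate, at 91.8 to 107 CPM in those without and at 33.2 to 34.6 CPM in monolayers, and Pdgfra alone, at up to 110 CPM, made up most of them, with Lum and Col3a1 at 0, Dcn and Pdgfrb at no more than 1 count, Thy1 at no more than 2, Col1a1 at up to 76 and Col1a2 at up to 32 counts in any library. Pdgfra was at 29.5 CPM in its lowest library, a monolayer. The summed macrophage and other leukocyte markers were at 16.4 to 19.3 CPM in spheroids with added palmitate, at 13.1 to 14.3 CPM in those without and at 33.9 to 38.8 CPM in monolayers, carried by Cd68 at up to 27.8 CPM and Cd14 at up to 12.4 CPM, with Adgre1 and Tyrobp at 0 and Ptprc at no more than 11 counts. The 6 endothelial markers together did not exceed 0.662 CPM. The part of the fibroblast and leukocyte genes in the results was not tested. In bulk RNA a higher share of cells that express a gene and more of its RNA per cell cannot be told apart.

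The first comparison asked how the proteases and inhibitors differ between 3D and 2D growth when both receive palmitate. The members that passed the test were all higher in spheroids. Mmp3, Mmp10 and Mmp13, which are secreted, and the membrane-bound Mmp15 rose between 4.29-fold and 7.63-fold, and Mmp14 and its binding partner Timp2 rose by 1.41-fold and 1.37-fold. Of the 10 members, 8 had enough counts to be tested, and 6 of these were called at an adjusted p under 0.05 by the quasi-likelihood test of edgeR, with p-values adjusted by Benjamini-Hochberg over all 12575 genes tested. The 3D against 2D contrast was wide in these cells: 68.3% of all genes tested were called, 34.5% as higher in 3D and 33.9% as lower, so a call alone sets no member apart. The libraries of the 2 groups did not overlap for 6 members, beside 69.4% of all genes. The median log2 fold change was 1.30 over the 8 tested members and 0.01 over all genes, where rises and falls offset each other. By the size of the rise, Mmp3 stood at place 194, Mmp13 at 298, Mmp10 at 334 and Mmp15 at 377 of the 12575 genes, while Mmp9 stood at 4937 and Timp1 at 5674.

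**Figure D1:**
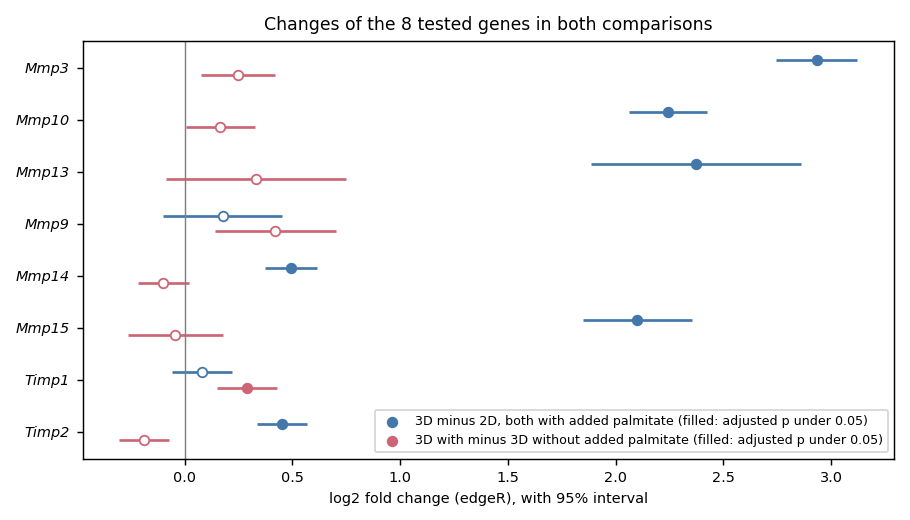
The plot gives the log2 fold change of each of the 8 tested members on the horizontal axis for both comparisons, with 95% intervals as bars and filled points for adjusted p under 0.05. The changes between 3D and 2D reach 2.93 for Mmp3, and those with palmitate stay between -0.19 for Timp2 and 0.42 for Mmp9.

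Mmp3 and Mmp10 encode the stromelysins, which cut proteoglycans, laminin and fibronectin and activate other pro-MMPs, and Mmp13 encodes a collagenase of fibrillar collagen. They lie on mouse chromosome 9 within one cluster of Mmp genes, Mmp13 at chr9:7272514-7283331, Mmp3 at chr9:7445822-7455975 and Mmp10 at chr9:7502352-7510240 of GRCm38, all on the plus strand. Their promoters are shown because these 3 neighbours rose together and their windows hold the same pair of motifs, and the window of Mmp14 is given as one without them. Each sequence is the 250 bases that precede the start of the gene in RefSeq on GRCm38.p6, read on the plus strand, from chr9:7445572-7445821 for Mmp3, chr9:7502092-7502341 for Mmp10, chr9:7272264-7272513 for Mmp13 and chr14:54431348-54431597 for Mmp14. Capitals mark TGANTCA, the letters of the AP-1 motif, which reads the same on both strands, and TATAAA, the letters of the TATA box, searched on both strands.
Mmp3: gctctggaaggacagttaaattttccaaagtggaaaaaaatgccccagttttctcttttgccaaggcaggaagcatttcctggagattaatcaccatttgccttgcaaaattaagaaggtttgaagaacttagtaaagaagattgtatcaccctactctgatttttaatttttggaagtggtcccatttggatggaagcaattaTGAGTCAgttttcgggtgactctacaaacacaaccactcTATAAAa
Mmp10: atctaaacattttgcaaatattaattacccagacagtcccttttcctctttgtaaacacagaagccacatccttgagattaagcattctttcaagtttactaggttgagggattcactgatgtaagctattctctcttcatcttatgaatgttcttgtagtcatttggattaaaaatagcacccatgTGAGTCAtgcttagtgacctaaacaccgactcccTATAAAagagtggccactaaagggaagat
Mmp13: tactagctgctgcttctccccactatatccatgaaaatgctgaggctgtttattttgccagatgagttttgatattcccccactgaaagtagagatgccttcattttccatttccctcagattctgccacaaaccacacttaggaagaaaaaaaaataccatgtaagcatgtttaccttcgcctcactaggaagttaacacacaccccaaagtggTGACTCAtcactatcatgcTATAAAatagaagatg
Mmp14: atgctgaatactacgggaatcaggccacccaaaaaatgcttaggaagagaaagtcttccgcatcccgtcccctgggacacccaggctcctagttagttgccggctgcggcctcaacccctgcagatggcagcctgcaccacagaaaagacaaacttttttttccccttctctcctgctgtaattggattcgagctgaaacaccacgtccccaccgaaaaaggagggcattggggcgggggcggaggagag

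In the windows above, the AP-1 letters begin 46 bases before the start of Mmp3, 63 bases before that of Mmp10 and 35 bases before that of Mmp13, and the TATA letters follow downstream of them in all 3. Of the 8 members with a promoter in the table, these 3 hold TGANTCA and the same 3 hold TATAAA. Mmp15, which rose 4.29-fold, holds neither, and nor do Mmp14, Timp1, Timp2 and Timp3. Among all 32851 promoter windows of this length, 6.75% hold TGANTCA and 12.4% hold TATAAA. A match describes the letters of the window and does not show that a factor binds there.

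Mmp3 was measured at 33.5, 35.9 and 38.6 CPM in the 3 libraries of monolayers, at 258, 259 and 314 CPM in spheroids with added palmitate and at 222, 234 and 242 CPM in spheroids without it. Every spheroid library lay far above every monolayer, and the highest value came from the smallest library. Between 3D and 2D with added palmitate Mmp3 rose 7.63-fold (log2 fold change 2.93, SE 0.0888, adjusted p = 2.26e-12), and without replicate 3 of the spheroids with added palmitate the log2 fold change was 2.83. Mmp10 was measured at 9.51, 8.84 and 10.3 CPM in monolayers, at 43.2, 45.7 and 47.5 CPM in spheroids with added palmitate and at 39.8, 42.1 and 39.0 CPM in those without. The values within each group were close together and the spheroids lay well apart from the monolayers. Mmp10 rose 4.74-fold (log2 fold change 2.24, SE 0.0843, adjusted p = 1.83e-11). Mmp13 was measured at 2.89, 4.90 and 4.19 CPM in monolayers, at 18.3, 17.6 and 33.5 CPM in spheroids with added palmitate and at 15.3, 18.0 and 18.9 CPM in those without. One spheroid library, again replicate 3, stood well above the rest, and no spheroid library reached down to the monolayers. The collagenase rose 5.18-fold (log2 fold change 2.37, SE 0.228, adjusted p = 3.74e-07), and by 2.09 on the log2 scale without that library.

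**Figure D2:**
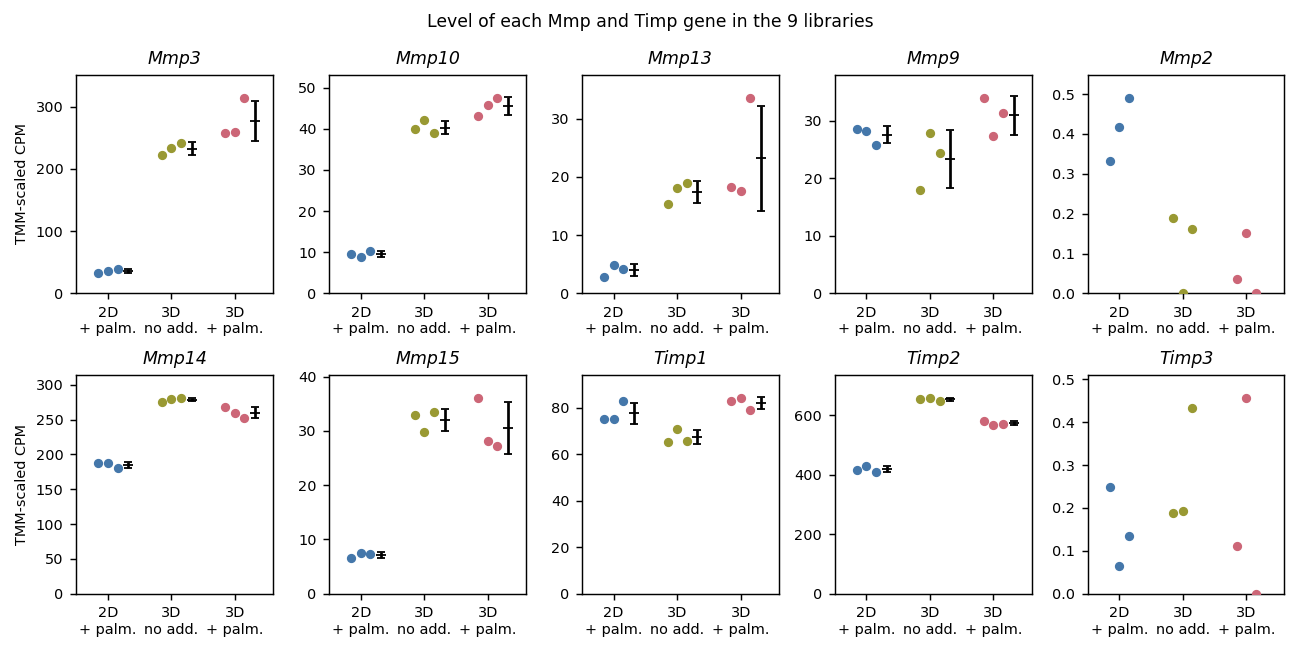
Each panel plots 1 member, with CPM from 0 on the vertical axis, the 9 libraries as points in their 3 groups and black marks for the mean and SD of each group, left out for Mmp2 and Timp3 with no more than 13 and 8 counts in any library. Mmp3, Mmp10, Mmp13 and Mmp15 sit high in all spheroid libraries, Timp1 is lowest in spheroids without added palmitate, and Mmp9 overlaps between groups.

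The Mmp cluster of chromosome 9 holds 10 annotated genes over 427.1 kilobases, in the order Mmp13, Mmp12, Mmp1b, Mmp3, Mmp1a, Mmp10, Mmp8, Mmp27, Mmp20 and Mmp7. The first 6, a block of 237.7 kilobases, had counts, and the last 4 had no more than 1 count in any library. Beside the 3 members in the block, the macrophage elastase gene Mmp12 and both rodent copies of the interstitial collagenase gene, Mmp1a and Mmp1b, are found there. Mmp1a was measured at 0.248, 0.160 and 0.0446 CPM in monolayers, from 3, 5 and 1 counts, and at 3.13, 3.11 and 3.52 CPM in spheroids with added palmitate. Its level was close to nothing in monolayers and low in spheroids, and it rose by 4.48 on the log2 scale (SE 0.324, adjusted p = 1.98e-08). Mmp1b rose by 2.41 (SE 0.253, adjusted p = 9.43e-07), from a mean of 0.600 CPM to 3.37 CPM. Both genes passed the filter on low counts through the spheroids and not through the monolayers. Mmp1a and Mmp1b are paralogues whose shared reads, if any, were not measured here, and Mmp1b overlaps the end of Mmp12 on the opposite strand. The letters TGANTCA are in the windows of 8 of the 10 genes of the cluster. These are 6 of the 6 with more than 1 count and 2 of the other 4. TATAAA is in the windows of 7. Mmp12 and Mmp7 each have a pair of windows, and a gene is counted if one of its windows holds the letters. For both genes 1 window of the pair holds TGANTCA, and for Mmp7 the same window holds TATAAA. For Mmp12 the window at the annotated start of the gene, chr9:7344147-7344396, lacks TGANTCA. The Mmp12 window that holds it, chr9:7347124-7347373, lies inside the gene, so the count of 6 of the 6 rests on that window.

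**Figure D3:**
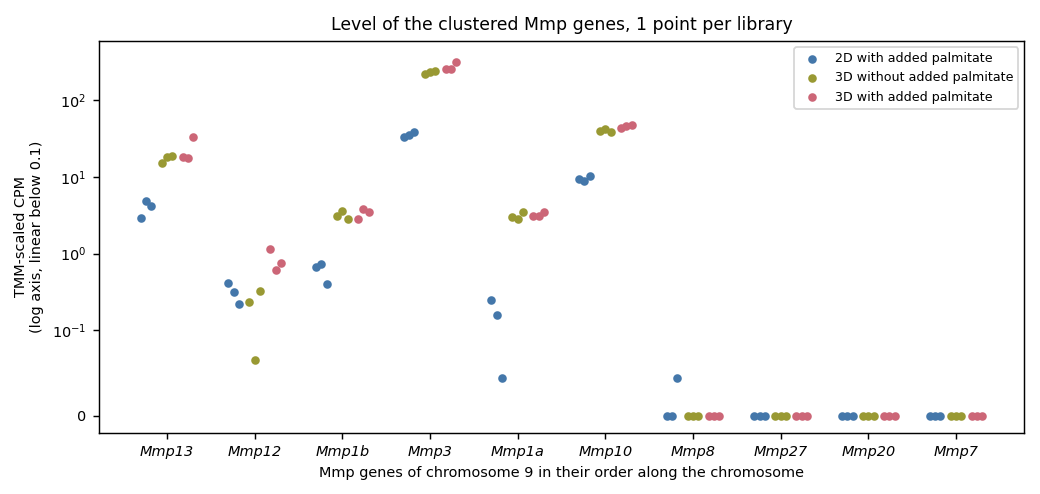
The 10 Mmp genes of the chromosome 9 cluster stand in their order along the chromosome on the horizontal axis, and points give the CPM of each library on a log axis that is linear below 0.1, coloured by group. Mmp3 is the most abundant gene of the cluster in all 9 libraries, and Mmp8, Mmp27, Mmp20 and Mmp7 have no more than 1 count in any library.

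Mmp9 and Mmp2 encode the gelatinases, which degrade denatured collagen and the collagen of basement membranes. Mmp9, at chr2:164940780-164955850, was measured at 28.6, 28.2 and 25.8 CPM in monolayers, at 33.9, 27.3 and 31.4 CPM in spheroids with added palmitate and at 18.0, 27.8 and 24.4 CPM in spheroids without. All 3 groups overlapped. Between 3D and 2D its log2 fold change was 0.18 with an interval of -0.10 to 0.45 (adjusted p = 0.242), which leaves out changes of the size seen for the chromosome 9 members. Mmp2, at chr8:92827291-92853420, had 4, 13 and 11 counts in monolayers, 1, 2 and 0 counts in spheroids with added palmitate and 4, 0 and 3 counts in spheroids without. It was close to the limit of detection in every library and had too few counts for the test. Summed over libraries, monolayers had 28 counts of Mmp2 and spheroids with added palmitate had 3, a ratio per total count of 6.70 with an exact 95% interval of 2.07 to 34.4, which covers counting error only. With no filter on low counts edgeR called Mmp2 lower in 3D (adjusted p = 0.00346), as did DESeq2 (adjusted p = 0.0385), and it was the 1 member called lower, in those alternatives alone.

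Mmp14 and Mmp15 encode membrane-type MMPs, which act at the cell surface, and Mmp14 is known as the activator of pro-Mmp2 in a complex with Timp2. Mmp15, at chr8:95352268-95375080, was measured at 6.53, 7.59 and 7.35 CPM in monolayers, at 36.0, 28.2 and 27.3 CPM in spheroids with added palmitate and at 32.9, 29.7 and 33.6 CPM in those without. Both kinds of spheroid covered the same range, far from the monolayers. It rose 4.29-fold between 2D and 3D (log2 fold change 2.101, SE 0.118, adjusted p = 1.38e-09). Mmp14, at chr14:54431612-54445364, was measured at 187, 187 and 180 CPM in monolayers, at 268, 260.0 and 252 CPM in spheroids with added palmitate and at 276, 279 and 281 CPM in those without. The groups did not overlap, and the spheroids without added palmitate were the highest. Mmp14 rose 1.41-fold between 2D and 3D (log2 fold change 0.49, SE 0.0561, adjusted p = 2.27e-06), a far smaller change than that of Mmp15.

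Among the inhibitors, Timp2, which blocks most MMPs and takes part in the surface complex with Mmp14, was measured at 417, 431 and 409 CPM in monolayers, at 582, 568 and 570.1 CPM in spheroids with added palmitate and at 656, 657 and 648 CPM in spheroids without. The groups formed 3 separate steps, with monolayers lowest. Timp2, at chr11:118301069-118355740 on the minus strand, rose 1.37-fold between 2D and 3D (log2 fold change 0.45, SE 0.0536, adjusted p = 3.34e-06). Cep295nl overlaps Timp2 on the same strand and has no entry of its own in the table used here. Timp1, a secreted inhibitor known to be induced by cytokines and growth factors, was measured at 75.2, 75.2 and 82.8 CPM in monolayers, at 83.0, 84.2 and 79.2 CPM in spheroids with added palmitate and at 65.5, 70.8 and 65.9 CPM in spheroids without. Monolayers and spheroids with added palmitate overlapped, and the spheroids without it lay below both. Between 3D and 2D the log2 fold change of Timp1 was 0.08 with an interval of -0.06 to 0.22 (adjusted p = 0.279), and it was 0.34 (adjusted p = 4.60e-05) once trends of the libraries with GC content and length were removed. Timp1, at chrX:20870166-20874735, lies inside Syn1 on the opposite strand, and Syn1 had 3 to 27 counts beside 517 to 2346 for Timp1. Timp3, an inhibitor bound to the matrix, at chr10:86300372-86349506, had 3, 2 and 3 counts in monolayers, 3, 6 and 0 in spheroids with added palmitate and 4, 3 and 8 in those without. At this depth no difference in Timp3 was detectable, and it lies inside Syn3 on the opposite strand, which had 40 to 165 counts.

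Levels of different genes were compared per kilobase of the longest annotated transcript. In monolayers the order of mean CPM per kilobase was Timp2 at 113, Timp1 at 88.0, Mmp14 at 57.1, Mmp3 at 19.99, Mmp9 at 8.68, Mmp10 at 5.55, Mmp13 at 1.49 and Mmp15 at 1.39, with Mmp2 and Timp3 under all of these. Mmp13 and Mmp15 did not differ beyond their spread there. In spheroids with added palmitate Mmp3 moved up to 154 ± 17.9 CPM per kilobase (SD, n = 3), level with Timp2 at 155 ± 2.02 (SD, n = 3), and Mmp10 at 26.4 passed Mmp9 at 9.73. Mmp9 and Mmp13 did not differ beyond their spread in these spheroids, nor did Mmp13 and Mmp15. In spheroids without added palmitate Timp2 led at 176, followed by Mmp3 at 129, Mmp14 at 86.1 and Timp1 at 76.3, and Mmp9, Mmp13 and Mmp15 lay between 6.25 and 7.37 without differing beyond their spread. The order depends on the length used: with the mean length of a gene's transcripts, 3 of the 10 members kept their place over all libraries. Mmp14 moved from place 4 to place 2 and Mmp3 from place 2 to place 3. Over all libraries Timp2 was at 148 CPM per kilobase by the longest transcript and 248 by the mean length, and Mmp3 at 101 by both. That Mmp3 and Timp2 were level in spheroids with added palmitate therefore refers to the longest transcript.

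Summed over the 7 Mmp members, the level per kilobase was 94.4 ± 0.860 CPM in monolayers, 285 ± 19.8 CPM in spheroids with added palmitate and 259 ± 8.25 CPM in spheroids without (SD, n = 3 each). Summed over the 3 Timp members it was 201 ± 3.22, 248 ± 3.87 and 253 ± 4.24 CPM per kilobase in the same order. The Mmp sum therefore came to 0.470 ± 0.00583 of the Timp sum in monolayers, 1.15 ± 0.0976 in spheroids with added palmitate and 1.02 ± 0.0354 in spheroids without (SD, n = 3 each), and with mean transcript lengths the monolayer ratio was 0.648. By the longest transcript Mmp14 made up 60.5% of the Mmp sum in monolayers and 28.3% in spheroids with added palmitate. Mmp3 made up 53.9% in those spheroids and 21.2% in monolayers. The shares depend on the length used and were not computed with mean lengths. Over all libraries Mmp14 was at 74.5 CPM per kilobase by the longest transcript and at 170 by the mean length. Mmp3 was at 101 by both, so the order of the 2 genes turned with the length. These are amounts of RNA and not of active enzyme. The sum of the 7 Mmp members leaves out the other Mmp genes. Among these, Mmp11 was at 11.9 CPM per kilobase in monolayers, 9.69 in spheroids with added palmitate and 11.7 in spheroids without. The ratio of Mmp14 to Timp2 per kilobase of the longest transcript was 0.506 ± 0.00832 in monolayers. It was 0.519 ± 0.0115 in spheroids with added palmitate and 0.488 ± 0.00760 in those without (SD, n = 3 each). The ratio of Mmp3 to Timp1 was 0.227 ± 0.00793, 1.66 ± 0.248 and 1.69 ± 0.0941 in the same order. The ratio of Mmp9 to Timp1 overlapped between the groups, at 0.0990 ± 0.0106, 0.105 ± 0.0126 and 0.0961 ± 0.0175. That of Mmp3 to Mmp10 was 3.61 ± 0.258, 5.81 ± 0.462 and 5.52 ± 0.351 (SD, n = 3 each).

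**Figure D4:**
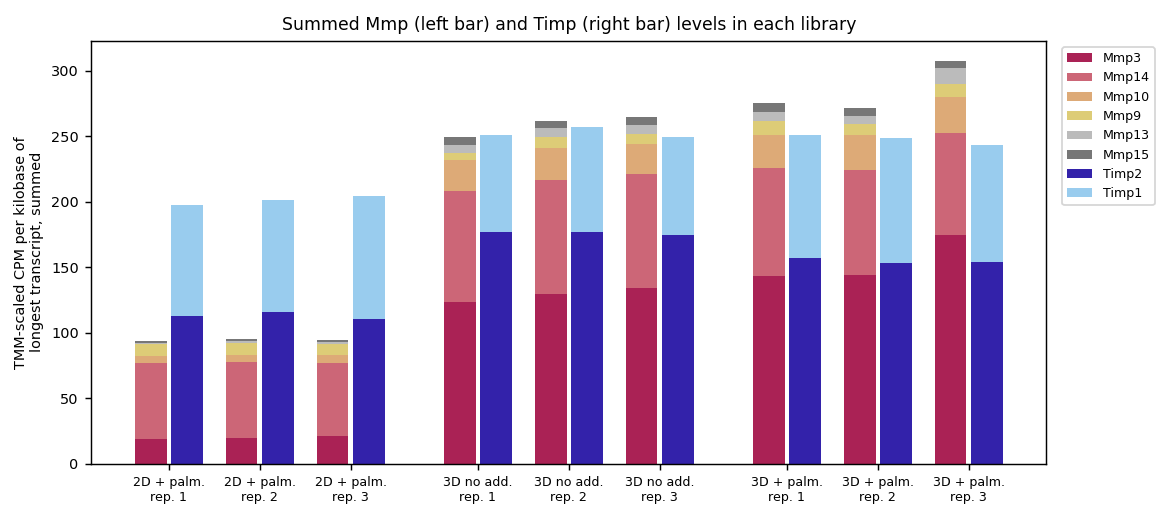
Stacked bars give, for each of the 9 libraries, the summed level of the Mmp members (left bar) and of the Timp members (right bar) in CPM per kilobase of the longest transcript, from 0, with a colour for each gene and with Mmp2 and Timp3 too low to be drawn. The Mmp bar is shorter than the Timp bar in all monolayers and in replicate 1 of the spheroids without added palmitate, and taller in the other 5 spheroid libraries, in which most of the Mmp bar is Mmp3 and Mmp14.

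The second comparison asked what adding palmitate does to spheroids. Timp1 rose by 1.22-fold with palmitate, and it was the 1 member of the 8 tested that was called. The background was 2.19% of all genes called, 1.38% as higher and 0.811% as lower. None of the 6 tested Mmp members was called by edgeR's quasi-likelihood test, 3 of them had an unadjusted p under 0.05, and DESeq2 called 0. The libraries with and without palmitate did not overlap for 5 of the 8 members, Mmp3, Mmp10, Mmp14, Timp1 and Timp2, beside 18.6% of all genes. This comparison shares the spheroid libraries with added palmitate with the first one, so the changes in the 2 comparisons are not independent.

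For Timp1 all 3 libraries with palmitate, at 79.2 to 84.2 CPM, lay above all 3 without it, at 65.5 to 70.8 CPM. Its log2 fold change was 0.29 (SE 0.0658, adjusted p = 0.0379). The log2 fold change lay between 0.23 and 0.32 in all 15 alternatives, and 6 of them called it, with adjusted p from 0.00544 without replicate 3 of the spheroids with added palmitate to 0.225 with the Rn45s share as a covariate. Leaving out any one of the other 5 spheroid libraries ended the call, with adjusted p from 0.0705 to 0.186. Timp2 went the other way, from a mean of 654 CPM without to 573 CPM with palmitate, a log2 fold change of -0.19 with an interval of -0.30 to -0.07 that was not called (adjusted p = 0.0852). It was called without replicate 3 of the spheroids with added palmitate (adjusted p = 0.0228), with the GC and length trend removed (adjusted p = 0.0140) and by DESeq2 (adjusted p = 0.00446). Timp1 accounted for 30.2% of the Timp sum per kilobase without palmitate and for 37.6% with it.

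The proteases had log2 fold changes with palmitate of 0.42 for Mmp9 (interval 0.14 to 0.70, adjusted p = 0.115), 0.25 for Mmp3 (0.07 to 0.42, adjusted p = 0.128) and 0.17 for Mmp10 (0.01 to 0.32, adjusted p = 0.270). Mmp9 was called without replicate 3 of the spheroids with added palmitate (adjusted p = 0.0389) and with no filter on low counts (adjusted p = 0.00396), and in the deposited libraries its groups overlapped at 27.3 and 27.8 CPM. For Mmp13 the value was 0.33 (interval -0.09 to 0.75, adjusted p = 0.412) and it rested on replicate 3, without which it was 0.06, while for Mmp3 it was 0.15 without that library. The membrane-type genes had values of -0.10 for Mmp14 (interval -0.22 to 0.02, adjusted p = 0.385) and -0.04 for Mmp15 (interval -0.26 to 0.18, adjusted p = 0.879). Over the 8 tested members the median was 0.21, beside 0.01 over all genes. Mmp2 had 7 counts in spheroids without palmitate and 3 with it, and Timp3 had 15 and 9.

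The genes that surround these enzymes in proteolysis were followed in 5 lists of 94 genes, of which 60 were tested. Between 3D and 2D 51 of the 60 were called, 35 as higher and 16 as lower, beside 68.3% of all genes called, 34.5% as higher and 33.9% as lower. The median log2 fold change of the 60 was 0.42, beside 0.01 over all genes. The counts by list are of called genes and read against the same shares. Of the other Mmp and Timp genes 7 of 17 were tested, 4 rose and 1 fell. Mmp19, an MMP of broad tissue distribution, rose by 2.55 on the log2 scale (SE 0.209, adjusted p = 7.33e-08), to a mean of 4.15 CPM. It too passed the filter on low counts through the spheroids and not through the monolayers. Mmp11, the third stromelysin by name, was 27.2 CPM in monolayers and 22.2 CPM in spheroids with added palmitate, and it fell by 0.27 (SE 0.0905, adjusted p = 0.0154). Timp4 had no count in any library.

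Plasmin activates several pro-MMPs, and of the 11 genes of its activation 9 were tested, with 5 higher and 2 lower in 3D. Serpine2, an inhibitor of urokinase and thrombin, was measured at 6.70, 5.57 and 5.75 CPM in monolayers and at 93.4, 105 and 105 CPM in spheroids with added palmitate. The groups were more than an order of magnitude apart, and Serpine2 rose by 4.10 on the log2 scale (SE 0.101, adjusted p = 3.26e-13). The plasminogen activator genes Plau and Plat rose by 0.70 (adjusted p = 6.26e-08) and 0.87 (adjusted p = 1.24e-07). The plasminogen receptor gene Plgrkt fell by 0.26 (adjusted p = 0.0139).

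Among the membrane-bound ADAM and the secreted ADAMTS proteases, 17 of 27 were tested, with 7 higher and 8 lower in 3D. Adam8 rose by 1.40 (adjusted p = 8.89e-10), Adam10, a sheddase of Notch and cadherins, by 1.11 (adjusted p = 3.34e-08) and the aggrecanase Adamts4 by 0.89 (adjusted p = 2.68e-06). Adam12 fell by 1.86 (adjusted p = 3.85e-09), Adamts1 by 1.63 (adjusted p = 3.09e-11) and Adamts8 by 1.20 (adjusted p = 1.02e-07).

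Of the activators, surface partners and other inhibitors 19 of 27 were tested, with 14 higher and 3 lower. Cd44, a hyaluronan receptor that holds MMPs at the cell surface, rose from a mean of 472 CPM to 1421 CPM (log2 fold change 1.59, adjusted p = 1.27e-10). Spint1, an inhibitor of the membrane protease matriptase, rose by 1.82 (adjusted p = 1.27e-10) and Pcsk6, a proprotein convertase, by 1.99 (adjusted p = 1.48e-10). Cav1 fell by 0.94 (adjusted p = 1.43e-07), the tetraspanin gene Cd63, whose product binds Timp1, by 0.71 (adjusted p = 1.49e-05) and Bsg, which encodes the inducer of MMPs basigin, by 0.42 (adjusted p = 2.69e-05). Of the matrix-degrading enzymes of other classes and their inhibitors 8 of 12 were tested, with 5 higher and 2 lower. The lysosomal proteases Ctsd and Ctsl rose by 1.63 (adjusted p = 2.48e-11) and 1.48 (adjusted p = 9.46e-11) and heparanase, Hpse, by 1.14 (adjusted p = 1.07e-05). The hyaluronidase genes Hyal1 and Hyal2 fell by 1.09 (adjusted p = 2.53e-06) and 0.35 (adjusted p = 0.00062).

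With palmitate in spheroids 6 of the 60 related genes were called, 5 as higher and 1 as lower, beside 2.19% of all genes called, 1.38% as higher and 0.811% as lower. The median change over the 60 was -0.01 on the log2 scale. Mmp12, from the chromosome 9 cluster, had 31, 8 and 5 counts with palmitate and 5, 1 and 6 without. Its counts were few and overlapped before scaling, and per total count all 3 libraries with palmitate were higher, at 0.608 to 1.14 CPM beside 0.0646 to 0.325 CPM. The summed counts were 44 and 12, a ratio per total count of 4.25 with an exact 95% interval of 2.21 to 8.85 for counting error. The fitted log2 fold change was 2.05 (SE 0.462, adjusted p = 0.0361). Mmp12 passed the filter on low counts only through the spheroids with added palmitate, the group where it was high. Its adjusted p therefore depends on that filter and gives no separate support for the rise. DESeq2 called 0 of the other Mmp and Timp genes with palmitate.

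Adamts1, a secreted protease of proteoglycans, was measured at 52.8, 48.1 and 51.5 CPM with palmitate and at 39.5, 38.5 and 39.3 CPM without. The groups were tight and did not overlap, and it rose by 0.38 (SE 0.067, adjusted p = 0.00995). Adam19 rose by 0.61 (adjusted p = 0.0238), Adam12 by 0.55 (adjusted p = 0.0478) and the cysteine cathepsin Ctsb by 0.26 (adjusted p = 0.0361), while the membrane serine protease gene Prss8 fell by 0.37 (adjusted p = 0.0385). The call was kept by 12 of 15 alternatives for Adamts1, 10 for Adam19, 7 for Prss8, 6 each for Adam12 and Ctsb, and 5 of 14 for Mmp12. None of the 9 tested genes of plasminogen activation was called by edgeR, beside 5 with an unadjusted p under 0.05 and 0 called by DESeq2.

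The 3 genes whose log2 CPM ran most like that of Timp1 over the 9 libraries were Parp16 with r = 0.92, Ucp2 with r = 0.92 and Mlx with r = 0.91. Their log2 fold changes with palmitate were 0.22, 0.37 and 0.18, and between 3D and 2D they were 0.03, 0.08 and 0.05. The 3 genes were picked for this likeness in the same libraries, so changes like those of Timp1 follow from the choice. The libraries fall into 3 groups and share their preparation, so the likeness describes these libraries.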

How the data were processed

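Poly(A) RNA of 9 libraries was sequenced by the authors with 50 bp single-end reads from a stranded kit. Per the study's methods the reads were trimmed with fastq-mcf and their quality was viewed with FastQC 0.11.9 before they were aligned to GRCm38 with HISAT2 2.1.0 and counted per gene with HTSeq-count. The annotation release and the strand setting are not given in the sources used here, so reads of overlapping or near-identical genes may be split or lost. The authors deposited raw counts per gene, without normalization.

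The analysis used edgeR 4.0.16 under R 4.3.3. The function filterByExpr took out genes with low counts and left 12575 of 24421 genes. Libraries were scaled by TMM, and one quasi-likelihood model with group as its term was fitted to all 9 libraries. Each comparison was tested with glmQLFTest, genes were called at a Benjamini-Hochberg adjusted p under 0.05 over all genes tested, and intervals are 95%. The standard error was taken as the absolute log2 fold change over the root of the F statistic. CPM values use TMM-scaled totals. Lengths came from the GENCODE annotation of GRCm38, found for 24027 genes, of which 23376 matched by symbol and 651 by a single synonym. Promoter windows came from RefSeq. The procedure was tested on simulated counts. Alternatives were RLE scaling, library size only, no filter, at least 10 counts in every library, the replicate block, the Rn45s share as covariate, removal of trends with GC content and length (splines with 4 degrees of freedom), the 2 groups alone, DESeq2 1.42.0, mean transcript length, and each library left out.

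Members and lists were chosen with earlier results of these data known. Named were all members, and from each related list and comparison at most 3 genes per direction with the smallest p among called genes without overlap between groups. One gene that this rule names is not reported here. For the called member with the smallest p under palmitate the 3 genes with the highest Pearson r of log2 CPM (prior count 2) were named. Furthermore, the genes of the chromosome 9 cluster, Timp4 and the overlapping genes were named for their place or family. Replicates differed by more than sampling noise, with a chi-square per gene of 3.89 to 19.7. The pairs of spheroids with added palmitate, which enter both comparisons, were at 16.4 to 19.7, and those of the other groups at 3.89 to 9.30. Intervals on summed counts cover counting error only.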

Additional observations from a re-analysis of the deposited data

How the results depend on the processing

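The number of members called between 3D and 2D was 6, and it was 6 or 7 in all alternatives run, with Mmp2 as the added call without a filter and by DESeq2 and Timp1 when the GC and length trend was removed. That removal moved the median log2 fold change of all genes to -0.08 and the share of calls that were higher in 3D from 50.4% to 42.4%. The number of related genes called stayed within 1.5 times the reported 51. With palmitate the calls were less stable. The 1 member called became 0 with library size only, with the replicate block, with the Rn45s share as a covariate and with the 2 groups alone, where 4 or 5 members had an unadjusted p under 0.05 by edgeR, and DESeq2 called 2. It became 2 without a filter and also 2 after removal of the GC and length trend, and leaving out one library gave 0 to 3, with the 3 found when replicate 3 of the spheroids with added palmitate was absent. The 6 related genes called became 3 with the replicate block, 0 with the Rn45s share (14 at an unadjusted p under 0.05), 12 with the GC and length trend removed and 1 with the 2 groups alone, and leaving out one library gave 0 to 13, with the 13 again when that replicate 3 was absent. Without it 1901 genes in all were called in place of 275. Of the 275 genes 173 were higher, or 62.9%, and the share was 46.7% with library size only and 52.7% without a filter. Plgrkt turned from a fall between 2D and 3D to 0.0091 on the log2 scale with the GC and length trend removed, and Mmp15 with palmitate ran from -0.21 to 0.019 when one library was left out. In each of these cases the cause was not tested. By mean transcript length 3 of 10 members kept their place in the order of levels. Replicate numbers did not pair the libraries: deviations of libraries with the same number correlated between -0.24 and 0.15 (median -0.05, 9 pairs), and those with other numbers between -0.17 and 0.28 (median 0.03, 18 pairs), so the replicate block serves as an alternative alone. Between 3D and 2D 119 of 120 member values kept their direction and their side of the threshold, and with palmitate 104 did, 5 gained a call, 9 lost one and 2 changed sign. Depth limited Mmp2 and Timp3, which had no more than 13 and 8 counts in a library.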
